A study of Rattus norvegicus with 18 samples.

Results

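The hypothalamic neuropeptide genes described here are the 10 genes Pmch, Nts, Hcrt, Oxt, Avp, Trh, Crh, Ghrh, Gal and Agrp, taken by symbol from the array annotation. All 10 were present, each by a single probe, among 22523 probes that covered 13337 named genes. They were grouped by what they encode, and the list was chosen with earlier results of these data known. Each encodes the precursor of a peptide hormone or transmitter. The hypothalamus, at the base of the brain, holds the best known cells of most of these peptides, and through them governs feeding, wakefulness, water balance, stress hormones and thyroid function. Several of the peptides are also made elsewhere, such as corticotropin-releasing hormone in interneurons of the cortex and neurotensin in the amygdala and striatum. The precursors are cut by processing enzymes inside dense-core vesicles and act on G protein-coupled receptors.

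RNA came from 18 female Wistar rat pups, 1 per litter, with 3 in each of 6 groups and 1 Illumina array per pup. The dams had received, by injection in the tail, BDE-47, a polybrominated flame retardant congener, at 0.002 or 0.2 mg/kg body weight, or the vehicle alone, a mixture of ethanol, Cremophor EL and water that every group received. Frontal lobe was taken at postnatal day 41 from the litters of dams injected 6 times from late gestation until shortly before weaning, per its sample protocol, whereas the series-level text gives day 10. Total brain came from pups aged 10 days, whose dams had 3 injections. Tissue, age and number of injections differ together and cannot be told apart in any contrast between the tissues. The array medians also differ, at 7.83 to 7.84 in frontal lobe and 7.88 to 7.89 in total brain, and whether the tissues were normalized separately is not given in the sources used here.

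The deposited values lie on a log2-like scale from 7.45 to 15.75, and a mean under 8 in a tissue is called near the floor here. By this measure 58.5% of probes were near the floor in frontal lobe and 56.6% in total brain, and no detection p-values were used to tell such a level from no signal. Any pair of arrays of a tissue correlated across probes at 0.981 or above in frontal lobe and 0.984 or above in total brain. The labelled regions were set against marker lists. The cortical glutamate transporter Slc17a7 averaged 10.47 ± 0.07 in frontal lobe and 9.31 ± 0.15 in total brain (SD, n = 3 vehicle arrays each), and the Purkinje cell gene Pcp2 averaged 7.65 ± 0.01 in frontal lobe and 10.06 ± 0.36 in total brain. All 7 measured thalamus markers, 9 of 10 cerebellum and hindbrain markers and 3 of 7 striatum markers were lower in frontal lobe, where 43.7% of all probes were, and 3 of 6 cortical projection neuron markers were higher, where 9.01% of all probes were. Neither tissue was a dissected hypothalamus, so each value is an average over all cells of the piece, in which fewer cells of a type and less RNA per cell cannot be told apart.

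**Figure D1:**
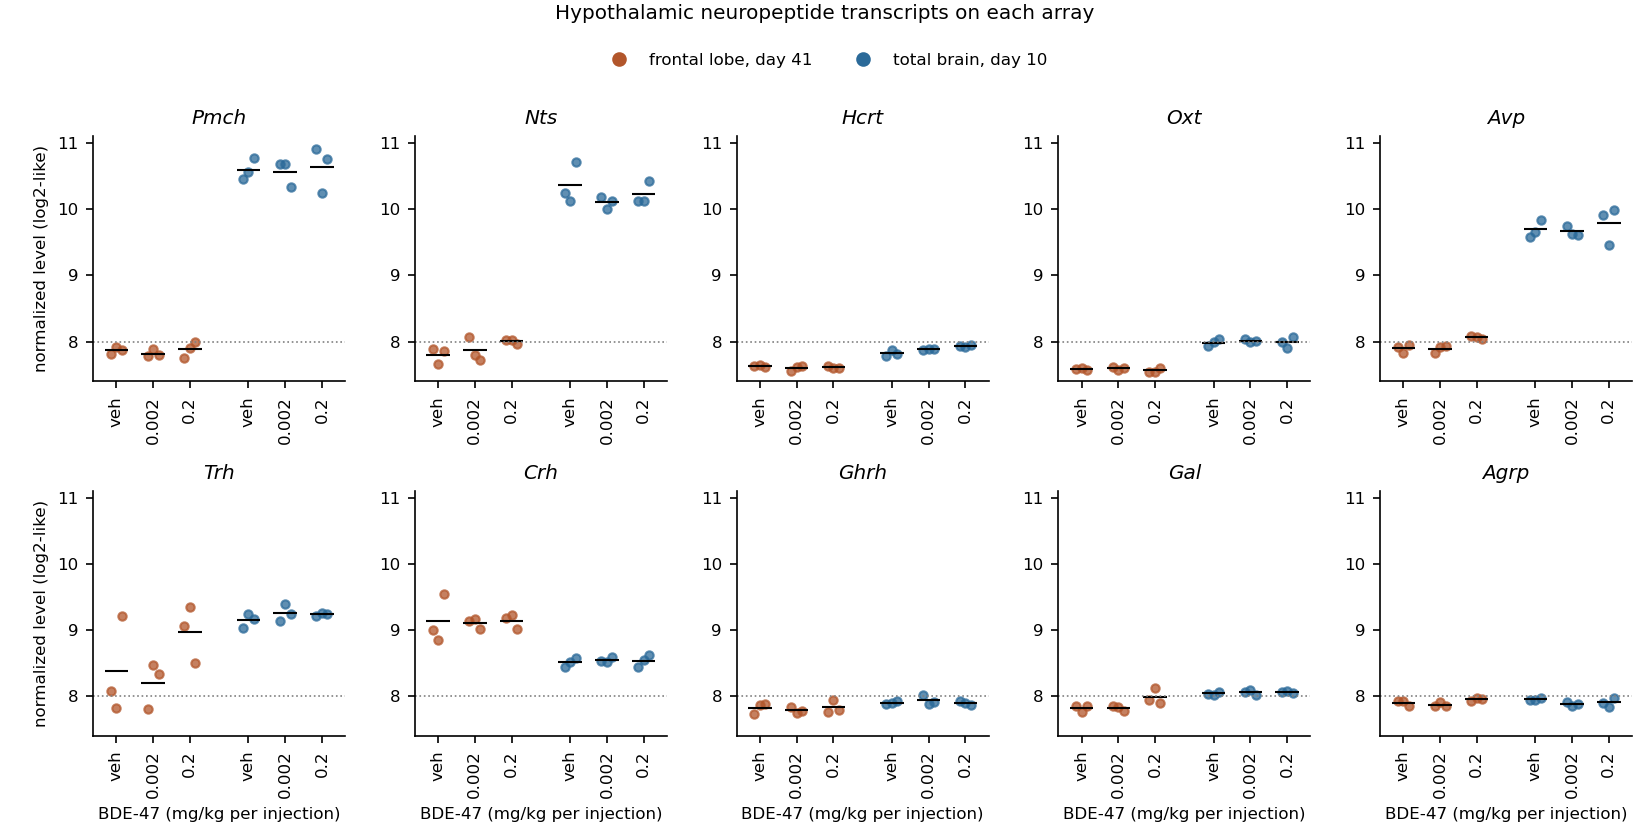
Level of each of the 10 transcripts on every array (points; log2-like normalized scale) by dose of BDE-47, with frontal lobe left and total brain right; bars are group means of 3 arrays and the dotted line marks the level 8 used as the floor. Pmch, Nts and Avp lie near the floor in frontal lobe and at 9.46 or above in total brain, Crh is higher in frontal lobe, and Trh varies widely among frontal lobe arrays.

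In the vehicle groups, 7 of the 10 transcripts were lower in frontal lobe than in total brain and 1, Crh, was higher (limma, adjusted p under 0.05 over all probes). Among all probes 52.7% were called, 43.7% lower and 9.01% higher, so a majority of calls among 10 genes is near the background on the deposited scale. That background depends on scaling. With quantile normalization 5226 of 22523 probes were called, against 11866 on the deposited scale. Pmch, Nts, Hcrt, Oxt, Avp, Crh and Gal kept their calls there. The size of single differences carries more than the count. The median difference of the 10, frontal lobe minus total brain, was −0.31 against −0.07 for all probes. The values of the groups did not overlap for 8 of 10 transcripts, as for 61.6% of all probes, and 8 of 10 had an unadjusted p under 0.05, where 59.7% of all probes did. Near-floor probes set the scale for small differences. Over the 12417 probes near the floor in both tissues the median difference was −0.07, the central 95% ran from −0.157 to 0.0645, and 51.1% of them were called. These probes were kept for a mean under 8 in both tissues, which limits how large their differences can be. A difference beyond their range is therefore not evidence by itself.

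Pmch encodes the precursor of melanin-concentrating hormone, a peptide of the lateral hypothalamus that promotes feeding and sleep. In frontal lobe it read 7.81, 7.92 and 7.88 in vehicle pups, 7.78, 7.89 and 7.79 at 0.002 mg/kg, and 7.75, 7.91 and 8.00 at 0.2 mg/kg. In total brain it read 10.45, 10.56 and 10.77 in vehicle pups, 10.68, 10.68 and 10.33 at 0.002 mg/kg, and 10.91, 10.25 and 10.76 at 0.2 mg/kg. The 9 frontal lobe arrays lay between 7.75 and 8.00, at or near the floor, and all 9 total brain arrays lay more than 2 units above them. The vehicle difference was −2.72 (SE 0.144, adjusted p = 8.56e-09), which on a plain log2 scale is a 6.59-fold lower level in frontal lobe. Since the frontal lobe value sits at the floor, this difference may be compressed. The total brain arrays spread by 0.251 (SD pooled within dose groups), more than 93.2% of the 7142 probes of that tissue with a mean of at least 8.5, and the 3 dose groups overlapped.

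Hcrt, the precursor of the wake-promoting orexins, is made in neighbouring cells of the lateral hypothalamus. It stayed near the floor in both tissues, between 7.56 and 7.65 in frontal lobe and between 7.78 and 7.94 in total brain, with no overlap. Its vehicle difference was −0.19 (SE 0.0258, adjusted p = 7.45e-05). Levels of different probes, such as those of Pmch and Hcrt, cannot be compared as amounts of RNA.

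Nts encodes neurotensin and neuromedin N, which modulate dopamine signalling, body temperature and feeding. Its frontal lobe values were 7.88, 7.67 and 7.86 in vehicle pups, 8.07, 7.81 and 7.73 at 0.002 mg/kg, and 8.03, 8.03 and 7.96 at 0.2 mg/kg. Its total brain values were 10.25, 10.13 and 10.71 in vehicle pups, 10.18, 10.00 and 10.13 at 0.002 mg/kg, and 10.13, 10.12 and 10.43 at 0.2 mg/kg. As with Pmch, every total brain array was above every frontal lobe array, with a vehicle difference of −2.56 (SE 0.133, adjusted p = 7.42e-09) or 5.88-fold on a plain log2 scale, which may likewise be compressed by the floor in frontal lobe. In the ranking of the 6 group means the step between total brain and frontal lobe was the only one without overlap for both genes.

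Avp and Oxt encode vasopressin, which retains water and raises blood pressure, and oxytocin, which drives milk ejection and uterine contraction. Both are released from the posterior pituitary by axons of the paraventricular and supraoptic nuclei, and the genes lie next to each other on rat chromosome 3 with 0 annotated genes between them, on opposite strands. Avp read 7.92, 7.83 and 7.95 in frontal lobe of vehicle pups, 7.83, 7.92 and 7.93 at 0.002 mg/kg, and 8.09, 8.06 and 8.04 at 0.2 mg/kg. In total brain Avp read 9.59, 9.66 and 9.84 in vehicle pups, 9.75, 9.63 and 9.61 at 0.002 mg/kg, and 9.91, 9.46 and 9.99 at 0.2 mg/kg. Its vehicle difference was −1.80 (SE 0.106, adjusted p = 2.67e-08), or 3.48-fold lower in frontal lobe on a plain log2 scale, again without overlap and from a frontal lobe value near the floor that may compress it. Oxt ranged from 7.55 to 7.61 in frontal lobe and from 7.905 to 8.08 in total brain. Its difference of −0.40 (SE 0.0373, adjusted p = 2.07e-06) was small, and its total brain mean of 7.998 lay just under the level of 8. Whether the tissue differences of these neighbouring genes differ from each other was not tested, and their probes may differ in how they respond to RNA.

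The sequences before the starts of 4 of these genes are shown because their tissue differences ranged from large (Nts, Avp) to small or unsteady (Oxt, Trh), and because Avp and Oxt are neighbours. They come from RefSeq for the rat assembly GRCr8, which was matched by gene and is not the build of the array design, and 8 of the 10 genes had an entry in the promoter table used (Pmch and Crh are named only). Each holds the 250 bases before the annotated start, 5′ to 3′ on the gene's strand, at chr3:138248523-138248772 (minus strand) for Avp, chr3:138235504-138235753 (plus) for Oxt, chr7:39460889-39461138 (minus) for Nts and chr4:126301763-126302012 (minus) for Trh. Capitals mark matches, on either strand, to 5 short motifs: TATAAA, the AP-1 type TGANTCA, the cyclic AMP response type TGACNTCA, the nuclear receptor half-site AGGTCA, which is read as TGACCT on the other strand, and the E-box CACGTG.
Avp: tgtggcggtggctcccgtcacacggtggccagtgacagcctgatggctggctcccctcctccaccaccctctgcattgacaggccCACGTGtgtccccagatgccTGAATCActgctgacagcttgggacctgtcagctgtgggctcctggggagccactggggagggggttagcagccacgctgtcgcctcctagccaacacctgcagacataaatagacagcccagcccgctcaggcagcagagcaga
Oxt: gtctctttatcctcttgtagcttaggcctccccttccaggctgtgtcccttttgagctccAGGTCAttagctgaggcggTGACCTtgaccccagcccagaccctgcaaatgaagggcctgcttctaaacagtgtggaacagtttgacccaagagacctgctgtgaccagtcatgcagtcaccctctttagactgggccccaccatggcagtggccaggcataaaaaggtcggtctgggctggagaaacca
Nts: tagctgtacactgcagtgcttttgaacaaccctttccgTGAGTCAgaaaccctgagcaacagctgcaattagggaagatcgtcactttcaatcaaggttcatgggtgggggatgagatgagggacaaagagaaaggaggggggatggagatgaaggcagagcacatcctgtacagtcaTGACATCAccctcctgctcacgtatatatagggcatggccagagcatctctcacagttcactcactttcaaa
Trh: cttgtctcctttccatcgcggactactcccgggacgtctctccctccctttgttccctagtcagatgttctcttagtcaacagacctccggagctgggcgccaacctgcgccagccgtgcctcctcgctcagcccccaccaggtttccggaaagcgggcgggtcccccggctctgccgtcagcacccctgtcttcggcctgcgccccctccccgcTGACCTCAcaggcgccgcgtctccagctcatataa
Among 33469 rat promoters of this length, 12.9% hold TATAAA, 6.34% TGANTCA, 8.88% TGACNTCA, 14.1% AGGTCA and 5.59% CACGTG. Nts held TGAGTCA from 212 to 206 bases before its start and TGACATCA from 72 to 65 bases before it. Avp held CACGTG from 165 to 160 and TGAATCA from 145 to 139 bases before its start. Oxt held AGGTCA from 190 to 185 and TGACCT from 171 to 166 bases before its start. Trh held TGACCTCA from 35 to 28 bases before its start, and the first 6 of these letters are also the half-site. Each of TATAAA (Gal and Hcrt), TGANTCA (Avp and Nts), TGACNTCA (Nts and Trh) and AGGTCA (Oxt and Trh) was found in 2 of the 8 promoters, and CACGTG in 1. A match describes the letters only.

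Trh, Crh and Ghrh encode releasing hormones that reach the anterior pituitary and drive secretion of thyrotropin, corticotropin and growth hormone. Trh read 8.08, 7.82 and 9.22 in frontal lobe of vehicle pups, 7.80, 8.47 and 8.34 at 0.002 mg/kg, and 9.06, 9.34 and 8.51 at 0.2 mg/kg. In total brain it read 9.04, 9.25 and 9.16 in vehicle pups, 9.13, 9.39 and 9.25 at 0.002 mg/kg, and 9.21, 9.26 and 9.24 at 0.2 mg/kg. The total brain arrays were close to each other, with a pooled SD of 0.0980 within dose groups, whereas the frontal lobe arrays spread by 0.534, more than 99.3% of the 6904 frontal lobe probes with a mean of at least 8.5. The vehicle groups overlapped, since the third frontal lobe array was level with total brain, and the difference of −0.77 (SE 0.293, adjusted p = 0.0400) lost its call in 9 of 15 alternative analyses. Without that array the difference was −1.19 (adjusted p = 0.00090), and without the second frontal lobe array it was −0.50 (adjusted p = 0.178), so single arrays decided its size.

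Crh, the stress hormone that starts the pituitary and adrenal response, was the only one of the 10 that was higher in frontal lobe. Its frontal lobe values were 9.003, 8.85 and 9.54 in vehicle pups, 9.14, 9.17 and 9.02 at 0.002 mg/kg, and 9.18, 9.23 and 9.02 at 0.2 mg/kg. Its total brain values were 8.45, 8.52 and 8.58 in vehicle pups, 8.54, 8.52 and 8.59 at 0.002 mg/kg, and 8.44, 8.55 and 8.63 at 0.2 mg/kg. Every frontal lobe array exceeded every total brain array, and the vehicle difference was 0.62 (SE 0.128, adjusted p = 0.00169), or 1.53-fold on a plain log2 scale. The difference was 0.41 without the third frontal lobe vehicle array, the highest of the 9, and kept its call. Crhbp, which encodes the protein that binds and holds this peptide, was also higher in frontal lobe, by 0.55 (SE 0.151, adjusted p = 0.00904), and by 0.36 without the third frontal lobe vehicle array, with its call kept.

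Ghrh, the growth hormone-releasing hormone of the arcuate nucleus, ranged from 7.74 to 7.95 in frontal lobe and from 7.86 to 8.03 in total brain and did not pass the test (−0.07, SE 0.0511, adjusted p = 0.237). Gal encodes galanin, a peptide of the hypothalamus and brain stem linked to feeding and sleep. It read 7.86, 7.76 and 7.85 in frontal lobe and 8.04, 8.03 and 8.07 in total brain of vehicle pups, without overlap. Its difference was −0.22 (SE 0.0453, adjusted p = 0.00151), and its mean over the 9 total brain arrays was 8.06, just above the near-floor level. Agrp, the appetite-driving agouti-related peptide of the arcuate nucleus, ranged from 7.85 to 7.98 in frontal lobe and from 7.84 to 7.98 in total brain, and its vehicle difference of −0.05 (SE 0.0332, adjusted p = 0.211) did not pass. The Ghrh and Agrp values lie among those of unrelated near-floor probes, and their differences change sign with the scaling, to 0.0123 for Ghrh and 0.035 for Agrp when arrays are centred on their 75th percentile. That neither passed in the vehicle groups does not show equal expression. The Agrp vehicle groups did not overlap, at 7.85 to 7.94 in frontal lobe and 7.95 to 7.97 in total brain, and Ghrh passed (−0.09, adjusted p = 0.0105) when the means of the 3 dose groups were compared.

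**Figure D2:**
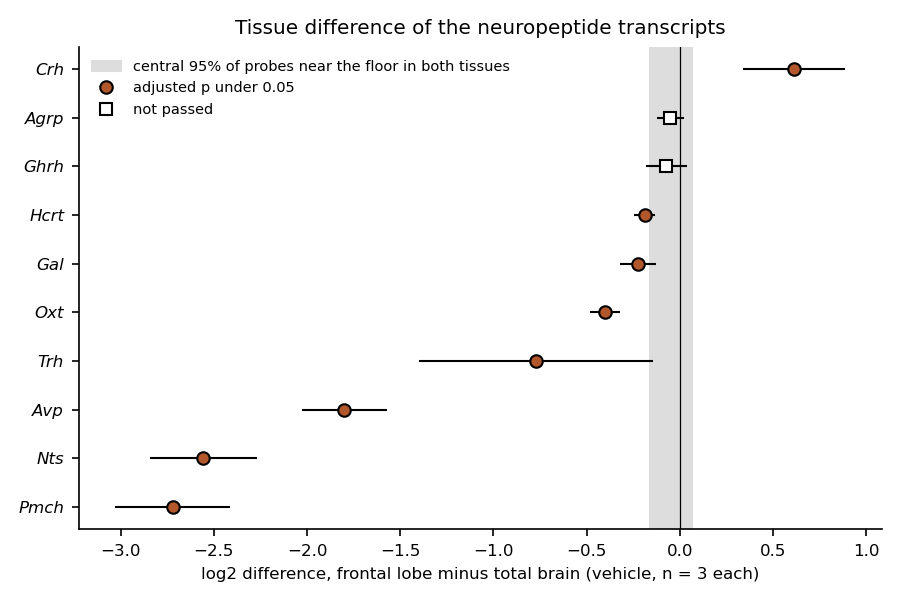
Difference between vehicle frontal lobe and vehicle total brain for each transcript (points; log2 scale, bars are 95% confidence intervals from limma, n = 3 arrays per tissue), with transcripts that passed filled and the grey band showing the central 95% of 12417 probes near the floor in both tissues. Pmch (−2.72), Nts (−2.56) and Avp (−1.80) lie far below the band, Crh (0.62) above it, and Ghrh and Agrp inside it. The band holds only probes with a mean under 8 in both tissues, so its width is limited by that choice.

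Other parts of the peptide system were compared in the same contrast, with gene lists defined by function. Of 16 measured receptors for these peptides, 1 was higher in frontal lobe and 8 were lower, with a median of −0.07, equal to the near-floor shift. Among all probes 9.01% were higher and 43.7% lower, so these counts are near the background. The orexin receptor Hcrtr1 averaged 8.03 ± 0.14 in frontal lobe and 8.70 ± 0.03 in total brain (SD, n = 3 each), a difference of −0.66 (SE 0.0884, adjusted p = 5.99e-05). The galanin receptor Galr2 differed by −0.45 (adjusted p = 2.71e-05) and the melanocortin receptor Mc4r, which Agrp blocks, by −0.33 (adjusted p = 0.000126). The vasopressin receptor Avpr1a was lower by a difference of −0.20 with overlapping groups, and 8 of 15 alternatives ended its call. The calls of Ntsr1 (−0.10), Oxtr (−0.09), Avpr2 (−0.09) and Galr3 (−0.09), the receptors of neurotensin, oxytocin, vasopressin and galanin, are within the central range of near-floor probes. Sort1, which encodes sortilin, a sorting receptor that also binds neurotensin, was higher by 0.16 (SE 0.0549, adjusted p = 0.0266), a call that 6 of 15 alternatives ended. The receptors Mchr1 (0.11), Trhr (−0.06), Galr1 (−0.05), Mc3r (−0.06), Ghrhr (−0.03), Hcrtr2 (0.01) and Avpr1b (0.00) did not pass. Over the alternatives the receptor calls ran from 3 to 10 lower and from 0 to 4 higher, so the count depends on scaling.

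Of 17 measured genes that process and store peptides, 8 were higher in frontal lobe and 2 lower, against 9.01% and 43.7% of all probes. Their median difference was 0.12, and 9 of the 17 differences were above 0. Scg5, the chaperone 7B2 of the convertase Pcsk2, was higher by 1.20 (SE 0.0773, adjusted p = 6.42e-08) and Pcsk2 itself by 1.08. The vesicle membrane protein gene Ptprn was higher by 1.14, the peptide-amidating enzyme gene Pam by 1.09 and the convertase inhibitor gene Pcsk1n by 0.69. The granins Scg3 and Chgb were higher by 0.41 and 0.35, whereas Scg2 did not pass (−0.10, adjusted p = 0.593). Qpct, which forms the N-terminal pyroglutamate found in peptides such as neurotensin and Trh, was lower by a difference of −0.77 (SE 0.0783, adjusted p = 4.62e-06), and Cadps, which primes vesicles for release, by −0.24. The counts ran from 7 to 9 higher and from 2 to 6 lower over the alternatives.

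Of 37 other measured neuropeptide genes, 5 were higher and 15 lower in frontal lobe, with a median of −0.09, near the 9.01% and 43.7% of all probes. Vip, made by cortical interneurons and by the suprachiasmatic nucleus, averaged 11.38 ± 0.26 in frontal lobe and 9.68 ± 0.04 in total brain (SD, n = 3 each), higher by 1.70 (SE 0.0988, adjusted p = 2.31e-08). Cck, abundant in the cortex, was higher by 1.66 (SE 0.128), the interneuron peptide Cort by 1.46 (SE 0.215), Apln, which encodes apelin, by 1.07 and Tac3, which encodes neurokinin B, by 0.71. The largest fitted decreases were those of the satiety peptide gene Cartpt (−0.95, SE 0.159, adjusted p = 0.000381), Pnoc, which encodes nociceptin (−0.93), the substance P gene Tac1 (−0.80) and Nucb2, which encodes nesfatin (−0.45). Npw (−0.27) and Gnrh1, the reproductive releasing hormone (−0.26), were lower at levels near or just above the floor. The other 9 lower calls, Calcb, Npvf, Galp, Pyy, Calca, Rln3, Kiss1, Qrfp and Uts2, had differences between −0.13 and −0.08, inside the near-floor range. Npy, Sst, Penk and Pomc did not pass, with differences of 0.27, −0.20, −0.24 and −0.01. The lower count fell to 5 and reached 25 over the alternatives, whereas the higher count was 5 to 8.

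Transcription factors that specify hypothalamic neurons were mostly dim, with 15 of 17 measured near the floor in frontal lobe and 10 of 17 in total brain. Of the 17, 1 was higher and 11 were lower in frontal lobe, against 9.01% and 43.7% of all probes, with a median of −0.14. Over the alternatives 0 to 2 were higher and 6 to 12 lower. Barhl1, also a gene of the cerebellum and hindbrain, averaged 7.64 ± 0.04 in frontal lobe and 9.69 ± 0.21 in total brain, and Lhx1, also a Purkinje cell gene, 7.72 ± 0.07 in frontal lobe and 9.48 ± 0.06 in total brain (SD, n = 3 each), for differences of −2.05 and −1.76. Irx5 (−0.68), Fezf1 (−0.51), Isl1 (−0.29) and Lhx9 (−0.27) were lower by less. Nkx2-1, which specifies the ventral hypothalamus in mice, was called lower by a difference of −0.10 between levels near the floor in both tissues. That difference is inside the near-floor range, and 6 of 14 alternatives ended the call. Sim1, needed in mice for the cells that make Avp, Oxt, Trh and Crh, did not pass (−0.05, adjusted p = 0.0786). The only one called higher was Pou3f2 (0.36, adjusted p = 0.0282), which is also a gene of cortical neurons. Its call was ended by 4 of 15 alternatives, and the difference was 0.20 without the second frontal lobe vehicle array.

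**Figure D3:**
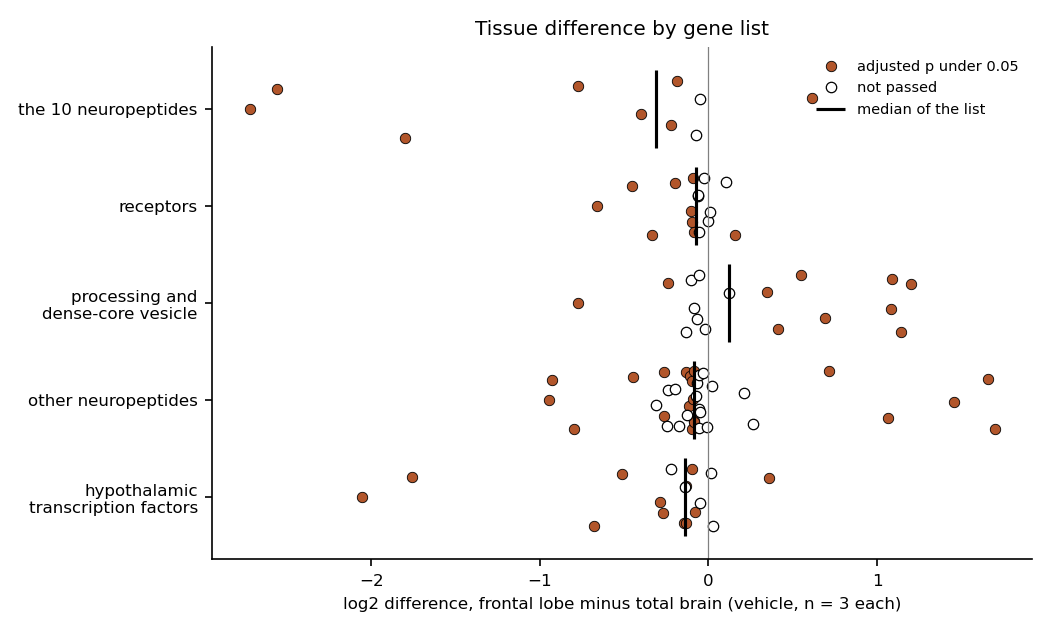
Difference between vehicle frontal lobe and vehicle total brain (log2 scale, horizontal) for every measured gene of 5 lists, with vertical position within a list spread for legibility, filled points for adjusted p under 0.05 and a bar at the list median. The medians are −0.31 for the 10 neuropeptides, −0.07 for the receptors, 0.12 for processing and vesicle genes, −0.09 for other neuropeptides and −0.14 for the transcription factors.

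BDE-47 was then compared with vehicle within each tissue. In frontal lobe at 0.2 mg/kg, 0 of 10 transcripts passed in limma, against 1.14% of all probes, and 2 had an unadjusted p under 0.05, against 15.0% of all probes. The values of 3 transcripts, Avp, Gal and Nts, did not overlap between the groups, all higher at 0.2 mg/kg, where 17.6% of all probes did not overlap and 8.85% were higher without overlap. Avp lay at 8.04 to 8.09 at 0.2 mg/kg and 7.83 to 7.95 in vehicle pups, a difference of 0.17 (SE 0.0414, unadjusted p = 0.0042, adjusted p = 0.106). Gal read 7.95, 8.12 and 7.91 at 0.2 mg/kg against 7.86, 7.76 and 7.85 with vehicle, a difference of 0.17 (SE 0.0571, adjusted p = 0.212) that was 0.11 without the second array at 0.2 mg/kg. Nts differed by 0.20 (SE 0.0908, adjusted p = 0.364), and by 0.13 without the second vehicle array. All 3 shifts were small and close to the floor, and none passed the adjustment over all probes.

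Trh had the largest fitted difference at 0.2 mg/kg in frontal lobe, 0.59, but its SE of 0.382 left a 95% interval from −0.29 to 1.48 (adjusted p = 0.542). The third vehicle array overlapped the 0.2 mg/kg group, and without it the difference was 1.01 (adjusted p = 0.101). Without the second vehicle array it was 0.32 (adjusted p = 0.849). Trhr, the receptor of this hormone, read 8.21, 7.99 and 7.93 at 0.2 mg/kg and 7.89, 7.83 and 7.86 with vehicle, a difference of 0.18 (SE 0.0691, adjusted p = 0.259) that was 0.10 without the first array at 0.2 mg/kg. Crh (0.01, interval −0.36 to 0.39), Pmch (0.02), Ghrh (0.01), Agrp (0.05), Oxt (−0.02) and Hcrt (−0.03) overlapped between the dose groups.

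Between 0.2 and 0.002 mg/kg in frontal lobe, again 0 of 10 passed, where 2.87% of all probes did, and 2 had an unadjusted p under 0.05, where 18.7% of all probes did. The 4 transcripts Avp, Gal, Trh and Agrp, were higher at 0.2 mg/kg without overlap, where 26.2% of all probes did not overlap and 13.2% were higher in this way. Avp differed by 0.17 (SE 0.0414, adjusted p = 0.0745), Gal by 0.17 (adjusted p = 0.166), Trh by 0.76 (SE 0.382, adjusted p = 0.343) and Agrp by 0.08 (adjusted p = 0.271). The median over the 10 was 0.07, against 0.00 for all probes. The comparisons of 0.2 mg/kg with vehicle and with 0.002 mg/kg share the same 3 arrays at 0.2 mg/kg, so they are not independent. At 0.002 mg/kg against vehicle, 0 of 10 passed and 0 were without overlap, where 0% and 12.8% of all probes did so, and 0 had an unadjusted p under 0.05, where 5.11% of probes did.

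Markers of cell types were read on the same frontal lobe arrays. Between 0.2 mg/kg and vehicle 0 of 9 neuron, 0 of 8 microglia and 1 of 6 cortical projection neuron markers passed, where 1.14% of all probes did. No astrocyte, oligodendrocyte, endothelial, choroid plexus and ependyma, thalamus, striatum, cerebellum and hindbrain or pituitary marker passed. An unadjusted p under 0.05 was found for 6 of 9 neuron, 2 of 8 microglia and 2 of 6 cortical projection neuron markers, against 15.0% of all probes. Between 0.2 and 0.002 mg/kg, 3 neuron and 1 cortical projection neuron markers were called lower and 0 microglia markers were called, against 2.87% of all probes. There 6, 4 and 5 of these lists, in that order, had an unadjusted p under 0.05, against 18.7% of all probes. The mean level of 9 neuron markers, 1 of them near the floor, was 11.70 to 11.85 at 0.2 mg/kg and 12.03 to 12.07 with vehicle, and that of 6 cortical projection neuron markers was 9.06 to 9.32 at 0.2 mg/kg and 9.42 to 9.56 with vehicle. Slc17a7 differed by −0.78 (SE 0.0962, adjusted p = 0.0179) between 0.2 mg/kg and vehicle. The mean of 8 microglia markers was 9.50 to 9.92 at 0.2 mg/kg and 9.29 to 9.52 with vehicle, with overlap. The part of these markers in the values of the peptide genes was not tested.

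In total brain, 0 of 10 transcripts passed in any of the 3 comparisons of doses, where 0% of all probes passed in each. At 0.2 mg/kg against vehicle, Hcrt alone had an unadjusted p under 0.05, where 4.32% of probes did, and alone did not overlap, where 10.1% of probes did not and 4.88% were higher in this way. At 0.002 mg/kg against vehicle and between the doses 0 of 10 had such a p, where 6.52% and 5.87% of probes did. Hcrt read 7.94, 7.92 and 7.94 at 0.2 mg/kg and 7.78, 7.88 and 7.81 with vehicle, a difference of 0.11 (SE 0.0275, unadjusted p = 0.0047, adjusted p = 1.00). At 0.002 mg/kg it read 7.87, 7.89 and 7.897, between these groups and overlapping the vehicle group, and the whole series stayed near the floor. At 0.002 mg/kg against vehicle, Agrp alone did not overlap and was lower (−0.07, SE 0.0334, adjusted p = 0.733), where 13.0% of probes did not overlap and 6.63% were lower in this way. Between 0.2 and 0.002 mg/kg, Hcrt alone did not overlap (0.05, adjusted p = 0.785), where 10.9% of probes did not. The intervals for the well-detected transcripts at 0.2 mg/kg against vehicle ran from −0.38 to 0.47 for Pmch, −0.50 to 0.22 for Nts, −0.23 to 0.41 for Avp, −0.08 to 0.26 for Trh and −0.10 to 0.15 for Crh. The intervals of Trh and Crh were thus narrower than those of Pmch, Nts and Avp.

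The test of whether the dose effect differed between frontal lobe and total brain called 0 of 10 transcripts at 0.2 mg/kg, where 0.204% of all probes were called, and 0 of 10 at 0.002 mg/kg, where 0% were. At an unadjusted p under 0.05 it had 2 of 10 at 0.2 mg/kg, where 12.0% of probes had one, and 1 of 10 at 0.002 mg/kg, where 4.92% had one. The smallest p was that of Hcrt at 0.2 mg/kg, whose effect was lower by 0.13 in frontal lobe than in total brain (difference −0.13, SE 0.0364, adjusted p = 0.156). Gal differed by 0.15 (SE 0.064, adjusted p = 0.370).

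**Figure D4:**
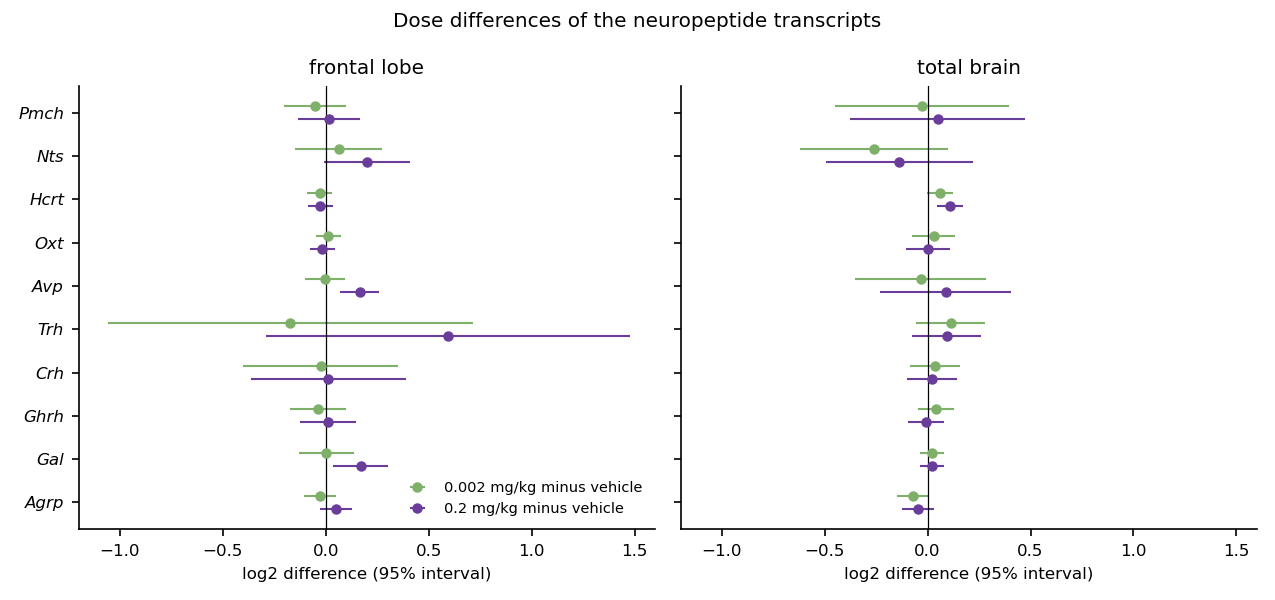
Difference of each BDE-47 dose from vehicle (points; log2 scale, bars are 95% confidence intervals from limma on the 9 arrays of a tissue) for the 10 transcripts in frontal lobe (left) and total brain (right). No transcript passed at an adjusted p under 0.05, the intervals of Avp and Gal at 0.2 mg/kg in frontal lobe and of Hcrt at 0.2 mg/kg in total brain lie above 0, and that of Trh in frontal lobe is the widest (−0.29 to 1.48).

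None of the 16 receptors, 17 processing and vesicle genes, 37 other neuropeptide genes and 17 transcription factors passed in any comparison of doses in limma. Among all probes 1.14% passed in frontal lobe at 0.2 mg/kg against vehicle, 2.87% against 0.002 mg/kg, and 0% in the other comparisons of doses. At an unadjusted p under 0.05 the higher dose against vehicle in frontal lobe gave 1 receptor, 1 processing or vesicle gene, 6 other neuropeptide genes and 1 transcription factor, where 15.0% of all probes had such a p. The nearest to the threshold was Npw, which encodes neuropeptide W (0.14, SE 0.0272, adjusted p = 0.0606). Pomc, the precursor of corticotropin and of the melanocortins that Agrp opposes, had the largest difference. In frontal lobe it read 8.41, 8.46 and 8.63 in vehicle pups, 8.79, 9.10 and 8.81 at 0.002 mg/kg and 8.91, 10.43 and 9.67 at 0.2 mg/kg. The 0.2 mg/kg and vehicle groups did not overlap, and the difference was 1.17 (SE 0.325, adjusted p = 0.137). It was 0.79 without the second array at 0.2 mg/kg. In total brain Pomc ranged from 8.22 to 8.62 over all 9 arrays. Beside it, Vip differed by −0.37 (adjusted p = 0.210), Pnoc by 0.33 (adjusted p = 0.265), Cartpt by 0.41 (adjusted p = 0.305), and Ptprn by −0.36 (adjusted p = 0.170).

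Pomc and prolactin are also products of the pituitary, and pituitary markers were read on the same arrays. Of 10 measured, 8 were near the floor in frontal lobe, and the remaining ones were Pomc and Prl. Prl read 8.17, 8.31 and 8.59 in vehicle pups, 11.56, 8.43 and 13.78 at 0.002 mg/kg and 10.01, 9.01 and 8.22 at 0.2 mg/kg, against 7.82 to 7.91 in total brain. The mean of the 10 markers, Pomc and Prl included, was 7.81 to 7.87 in frontal lobe of vehicle pups. It was 7.91 to 8.47 at 0.002 mg/kg and 7.93 to 8.12 at 0.2 mg/kg, without overlap with vehicle. The corticotroph factor Tbx19 and the lactotroph factor Pou1f1 differed between 0.2 mg/kg and vehicle by −0.01 and 0.01. Both were near the floor, which limits what these differences can show. The part of pituitary cells in the Pomc values was not tested.

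Within a tissue, the readings of the transcripts with a mean of at least 8.5 were compared over its 9 arrays, in 11 pairs. Pmch and Avp varied together in total brain, with Pearson's r = 0.869 (exact permutation p = 0.00267, adjusted 0.0293) and Spearman's rho = 0.883 (exact permutation p = 0.00308, adjusted 0.0338). The r was 0.811 without the 2 arrays farthest from the median of Pmch, and 0.876 after each dose group was centred on its own mean. The second array at 0.2 mg/kg was lowest for both (10.25 and 9.46), and all 3 dose groups were spread along the relation. Trh and Crh in frontal lobe had r = 0.737 (exact permutation p = 0.0157, adjusted 0.0864) and rho = 0.783 (exact permutation p = 0.0172, adjusted 0.0947), and r was 0.569 without the 2 farthest arrays and 0.871 after each dose group was centred on its own mean. That relation did not pass the adjustment. The third vehicle array was highest for Crh (9.54) and second highest for Trh (9.22) among the 9, and it also had the highest Npy (12.09) and Cck (14.69) of the frontal lobe arrays. The other 9 pairs, all in total brain, had adjusted p of 0.135 or more on either measure. How the piece was cut and processed may differ between the arrays of a tissue, and the part of this was not tested.

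**Figure D5:**
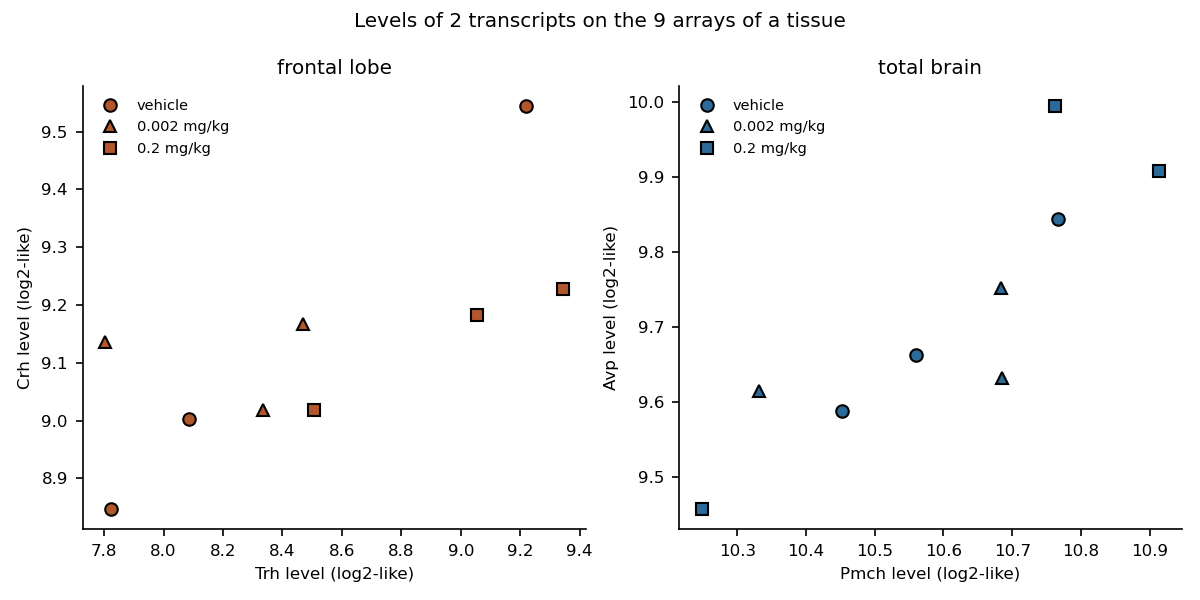
Levels of Trh (horizontal) and Crh (vertical) on the 9 frontal lobe arrays (left) and of Pmch (horizontal) and Avp (vertical) on the 9 total brain arrays (right), log2-like scale, with symbols for vehicle, 0.002 and 0.2 mg/kg. Pmch and Avp lie along a line with r = 0.869, and the relation of Trh and Crh (r = 0.737) did not pass the adjustment over 11 pairs.

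As a description, the 5 named probes with a mean of at least 8.5 whose level went most closely with each transcript over the 9 arrays of a tissue were listed, out of 5475 in total brain and 5274 in frontal lobe. For Pmch in total brain these were Prkcsh (r = 0.916), Ttc9b (0.910), Avp (0.869), Smim8 (0.866) and Ring1 (0.854). For Avp they were Tie1 (0.942), Neurl4, Cox5a, Txn1 and C5h1orf122 (0.919), for Nts Rsph9 (0.951), Naa50, Polr1f, Spint2 and Ndufa7 (0.923), for Trh Ccndbp1 (0.949), Sc5d, Tob2, Atp1b2 and Sptbn4 (0.918), and for Crh Ehd3 (0.928), Tm2d2, Adsl, Scarb1 and Gtf2f1 (0.819). In frontal lobe they were Mrps18b (0.963), Prdx2, Map4k1, Smarcd3 and Pdrg1 (0.951) for Trh, and Zfp637 (0.942), Psmb7, Pfn1, Nudt16l1 and Mtx2 (0.923) for Crh. Avp beside Pmch was the only one of the 10 neuropeptide transcripts in another's list.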

How the data were processed

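The deposited values, from which all results were computed, are on a log2 or log2-like scale. Per the submitters' processing notes, lumi was used; its version, background correction, transformation and normalization were not given in the sources used here. If lumi's variance stabilization was used, differences near the floor are compressed. No batch is named in the labels, and the number of arrays limits precision. No value was transformed or filtered. limma 3.58.1 in R 4.3.3 was fitted to all 22523 probes, for doses on the 9 arrays of a tissue and for tissue contrasts and interactions on all 18, with Benjamini-Hochberg adjustment over all probes and a threshold of 0.05. Fits were tested on simulated data. Pups come from separate litters. The members, gene lists and alternatives were chosen with earlier results of these data known. Named are all 10 members and all measured receptors; of the other lists, up to 5 genes of smallest p, up to 8 that passed, and 16 fixed genes (Pcsk1, Cpe and Otp not analysed here). Further companion genes were named after their values were seen. Alternatives were other scalings, a filter on dim probes, other priors, array weights, a replicate block, other arrays in the fit and leaving out each array. Same-numbered arrays did not deviate together consistently (correlations −0.249 to 0.105 in frontal lobe and −0.294 to 0.440 in total brain), so numbers were not treated as pairs. In total brain 6 of the 9 same-numbered correlations were above 0.1, and those of differently numbered arrays ran from −0.527 to 0.516. Figures were drawn in Python 3.11.15.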

Additional observations from a re-analysis of the deposited data

How the results depend on the processing

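Pmch, Nts, Avp, Crh and Gal kept direction and call between the tissues in all 15 alternatives, and Hcrt and Oxt in all 14 that gave them a value (the filter on the brighter 50% of probes removes both). The number of transcripts called there was 6 to 9 over the alternatives and 7 to 8 when 1 array was left out. Trh lost its call in 9 of 15 (−0.70 and adjusted p = 0.115 with quantile normalization, −0.89 and adjusted p = 0.123 with the replicate block). The replicate block otherwise changed no call of the 10: it left 7 transcripts called between the tissues and 0 in each comparison of doses. Ghrh passed (−0.09, adjusted p = 0.0105) when the mean of the 3 dose groups was compared. Centring on the 75th percentile turned Ghrh to 0.0123, Agrp to 0.035, Qrfp to 0.00187 and Rax to 0.00787, and centring on the median turned Agrp to 0.00101, none of them called. In the comparisons of doses and the interactions the count was 0 in every alternative, except that 1 transcript, Avp, passed between 0.2 and 0.002 mg/kg in frontal lobe with the trend and robust options of eBayes and at an adjusted p under 0.1. Pomc between 0.2 mg/kg and vehicle in frontal lobe passed in 1 of 16 alternatives, Npw in 3 of 15 and Ptprn, which was lower, in 1 of 16 (−0.49, adjusted p = 0.0199, without the third vehicle array). Up to 2 processing and vesicle genes were called lower between 0.2 mg/kg and vehicle and between the doses in frontal lobe, and up to 1 in the test of whether the 0.2 mg/kg effect differed between the tissues. In the tissue contrast the number of all probes called was 11866, against 5226 with quantile normalization, 5828 with median centring, 5414 with centring on the 75th percentile and 6778 with the replicate block; the cause was not tested. Signal near the floor limits Hcrt, Oxt, Ghrh and Agrp in both tissues, and Pmch, Nts, Avp and Gal in frontal lobe.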

Other observations

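Ttr, which encodes the thyroxine carrier of the choroid plexus, read 10.71, 8.17 and 7.92 in frontal lobe of vehicle pups. It read 7.81, 8.31 and 8.11 at 0.002 mg/kg and 8.15, 8.56 and 8.28 at 0.2 mg/kg, against 12.78 to 13.74 in total brain. The first vehicle frontal lobe array, with the highest Ttr, was at or near the floor for Pmch (7.81), Nts (7.88) and Avp (7.92).

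In total brain, Apln read higher at 0.2 mg/kg than with vehicle without overlap, by 0.23 (SE 0.0579, unadjusted p = 0.00418, adjusted p = 1.00), and Vip was lower at 0.2 than at 0.002 mg/kg (−0.21, SE 0.0466, adjusted p = 0.780), neither passing in limma.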
